A study of Mus musculus with 6 samples.

Results

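Transcripts of 10 nuclear genes that process and degrade mitochondrial RNA were compared between control and Uba3 conditional knockout (Uba3 cKO) mouse oocytes. The genes, Trmt10c, Hsd17b10, Elac2, Grsf1, Mtpap, Lrpprc, Slirp, Supv3l1, Pnpt1 and Rexo2, were taken by symbol from a table of 28738 Ensembl gene IDs. All 10 were found, and all 10 passed the level filter. Each library came from a pool of about 150 fully-grown germinal vesicle oocytes, which are arrested in meiotic prophase, on a background labelled C57/Bl6/N;129SvEv7. There were 3 pools of the genotype labelled Control and 3 of the genotype labelled Uba3 cKO, called control pools and knockout pools 1, 2 and 3 by the number in their titles. Uba3 codes for the catalytic part of the E1 enzyme for NEDD8, a ubiquitin-like modifier. The sources used here do not give the Cre line, the deleted part of Uba3, the alleles of the controls or the age of the mice. Nor do the labels say whether pools came from separate animals, so the p-values may measure technical spread between pools only.

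Mitochondrial DNA is transcribed from both strands into long polycistronic precursors, in which transfer RNAs punctuate most of the messenger and ribosomal RNAs. RNase P and RNase Z cut on either side of each transfer RNA, and the released RNAs are then polyadenylated, bound by stabilizing proteins or degraded. The nuclear genes described here encode those factors. The growing oocyte accumulates a large store of mitochondria that the early embryo inherits, and the title of the series links NEDD8 modification to mitochondrial transcription.

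Values are the authors' normalized values, which appear from their range to be on a log2 scale, since no transform is named. A difference of 1 is read as a doubling, and would understate it if the transform shrinks values. Every difference is Uba3 cKO minus control. A gene was called when its Benjamini-Hochberg adjusted p in limma, fitted and adjusted over 17450 kept genes, was under 0.05. The depth of each library is unknown. Pearson correlations across kept genes lay between 0.9968 and 0.9981 within groups and between 0.9948 and 0.9971 across groups. Uba3 itself stood at 11.37, 11.46 and 11.34 in control pools 1, 2 and 3 and at 10.03, 10.16 and 10.36 in knockout pools 1, 2 and 3. The targeted gene was thus lower in every Uba3 cKO pool, by 1.21 on average (log2 difference -1.21, SE 0.10, adjusted p = 2.07e-05 in limma). All 12 oocyte markers were kept. Their summed linear level was 447504 to 501679 in control and 400304 to 442156 in Uba3 cKO libraries, with 1 marker called higher and 2 lower. Of 11 theca, stroma and luteal markers, 6 were called lower and none higher, and their summed linear level was 3601, 4807 and 5678 in control pools 1, 2 and 3 and 2529 to 3253 in Uba3 cKO libraries. None of these 11 was dropped by the level filter. Granulosa and cumulus markers summed to 14674 to 18802 in control and 12936 to 16811 in Uba3 cKO libraries, with 1 of 10 kept markers called higher and 1 lower. The cumulus expansion genes Ptx3 and Tnfaip6 were below the filter. Of 5 endothelial markers 1, Tie1, was called lower (difference -0.59, adjusted p = 0.0031 in limma). The endothelial sums were 2552 to 3010 in control and 2554 to 2960 in Uba3 cKO libraries. They mostly follow Pecam1, with a mean of 11.30 in either group, while Tie1 averaged 7.52 in control. Pecam1, Cdh5, Kdr and Emcn were not called (differences 0.002, -0.14, 0.03 and 0.01). Of 6 kept blood and immune markers 2 were called lower, with sums of 469.0 to 484.2 in control and 371.3 to 403.9 in Uba3 cKO libraries. Those sums lean on C1qb, 1 of the 2 called, which averaged 8.32 in control, while C1qa was below the filter. In bulk pools, fewer cells of a type and less RNA per cell cannot be told apart.

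Among the 10 genes, Trmt10c rose, Supv3l1 fell and 8 did not pass the test. The share of called genes among all those tested was 8.14%, with 5.64% higher and 2.50% lower. The median log2 difference of the 10 genes was -0.11, against -0.01 for all 17450 tested genes, and 9 of the 10 differences were below 0, against 51.8% of all tested genes. The differences ran from -0.31 to 0.39. Groups were fully apart for 3 of the 10 genes, against 27.9% of all tested genes. The median SD between replicates was 0.083 in control and 0.076 in Uba3 cKO pools, and the median size of the difference, regardless of sign, was 0.120 for the 10 genes and 0.099 for all tested genes. Control pool 2 held the highest value of 5 of the 10 genes, and knockout pool 2 the lowest of 4.

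Each called gene has a partner of the same enzyme among the 10. Sequences just upstream of the transcription start are therefore shown for Supv3l1 and Trmt10c, which were called, and for their partners Pnpt1 and Hsd17b10, which were not. Each line gives the 250 bases before the start, read 5′ to 3′ on the strand of the gene, from RefSeq on build GRCm38.p6, an earlier build than the GRCm39 of the submitters' processing notes. The windows are chr10:62449739-62449988 on the minus strand, chr11:29130494-29130743 on the plus strand, chr16:56037787-56038036 on the minus strand and chrX:152001646-152001895 on the plus strand. Capitals mark matches, on either strand, to CCAAT, the core recognized by NF-Y, or to CCGGAAG, a core recognized by ETS factors.
Supv3l1: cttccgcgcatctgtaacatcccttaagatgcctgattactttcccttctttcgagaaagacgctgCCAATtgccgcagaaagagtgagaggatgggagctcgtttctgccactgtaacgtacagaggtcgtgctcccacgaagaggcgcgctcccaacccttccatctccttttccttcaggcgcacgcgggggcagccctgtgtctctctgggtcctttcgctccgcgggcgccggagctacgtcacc
Pnpt1: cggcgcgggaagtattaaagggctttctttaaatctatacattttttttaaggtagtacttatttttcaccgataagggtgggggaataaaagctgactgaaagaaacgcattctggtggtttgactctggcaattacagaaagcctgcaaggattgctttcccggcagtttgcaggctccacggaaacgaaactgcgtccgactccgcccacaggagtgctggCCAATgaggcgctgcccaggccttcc
Trmt10c: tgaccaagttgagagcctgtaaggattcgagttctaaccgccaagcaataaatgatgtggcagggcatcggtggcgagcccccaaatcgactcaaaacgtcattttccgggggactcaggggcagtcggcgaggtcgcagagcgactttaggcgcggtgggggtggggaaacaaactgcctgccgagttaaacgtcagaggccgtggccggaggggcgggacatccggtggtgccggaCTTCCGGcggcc
Hsd17b10: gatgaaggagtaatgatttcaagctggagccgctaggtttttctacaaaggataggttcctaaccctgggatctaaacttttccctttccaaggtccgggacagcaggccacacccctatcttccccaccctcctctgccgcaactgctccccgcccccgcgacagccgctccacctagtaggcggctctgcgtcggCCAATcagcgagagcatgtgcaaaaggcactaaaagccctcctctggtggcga
The Supv3l1 and Pnpt1 windows each held a CCAAT, starting 184 and 26 bases before the start. The Hsd17b10 window held one 53 bases before the start, and Trmt10c held none but had the ETS core, on the opposite strand, beginning 12 bases before the start. The promoter table held 9 of the 10 genes in 10 windows of 300 bases, which run from 250 bases before to 50 after the start, and Mtpap had no entry. Across those windows, searched on both strands, CCAAT was found for 5 of 9 genes, against 37.4% of all 32851 windows in the table. The ETS core was found for 3 of 9 genes (Slirp, Trmt10c and Grsf1) against 8.86% of all windows, and Slirp held 3 copies. GGGCGG, the core of SP1 sites, was found for 6 of 9 genes against 35.7%, AAGATGGC, a YY1 core, for 2 of 9 (Slirp and Hsd17b10) against 2.75%, and the NRF1 core for Rexo2 alone among the 9 against 4.60%. The YY1 core of Hsd17b10 lies after the start, outside the bases printed. A match describes the letters only.

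The first cut, at the 5′ end of each transfer RNA, is made by mitochondrial RNase P, a protein-only enzyme. Trmt10c encodes its methyltransferase subunit, which binds the transfer RNA and also methylates it. Trmt10c stood at 10.19, 10.16 and 9.89 in control pools 1, 2 and 3 and at 10.48, 10.33 and 10.60 in knockout pools 1, 2 and 3. Every knockout pool was above every control pool, and control pool 3 was the lowest. Within each group, the order of Trmt10c was the inverse of the order of the summed theca, stroma and luteal markers. Their sum was highest in control pool 3 and lowest in knockout pool 3. That sum leans on Hsd3b1, the highest of these markers in every library, at 10.59, 10.82 and 11.43 in control pools 1, 2 and 3. Cyp11a1, at 8.36, 9.88 and 9.55, was highest in control pool 2. The inverse order in control thus did not hold for every marker. Both Trmt10c and the marker sums also separated the groups, so an inverse order over all 6 libraries follows in part from that. The orders were compared with the values known. The part of those markers in the result was not tested. Separated groups with the Uba3 cKO pools higher were found for 15.1% of all tested genes. The difference of 0.39 (SE 0.11, 95% interval 0.15 to 0.63) is a 1.31-fold higher level (adjusted p = 0.0459 in limma). The call ended when control pool 2 or 3 or knockout pool 1 or 3 was left out (differences from 0.29 to 0.43, adjusted p up to 0.215). It also ended with no level filter, with median centring, with quantile normalization and without the variance trend (adjusted p from 0.0545 to 0.0632).

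**Figure D1:**
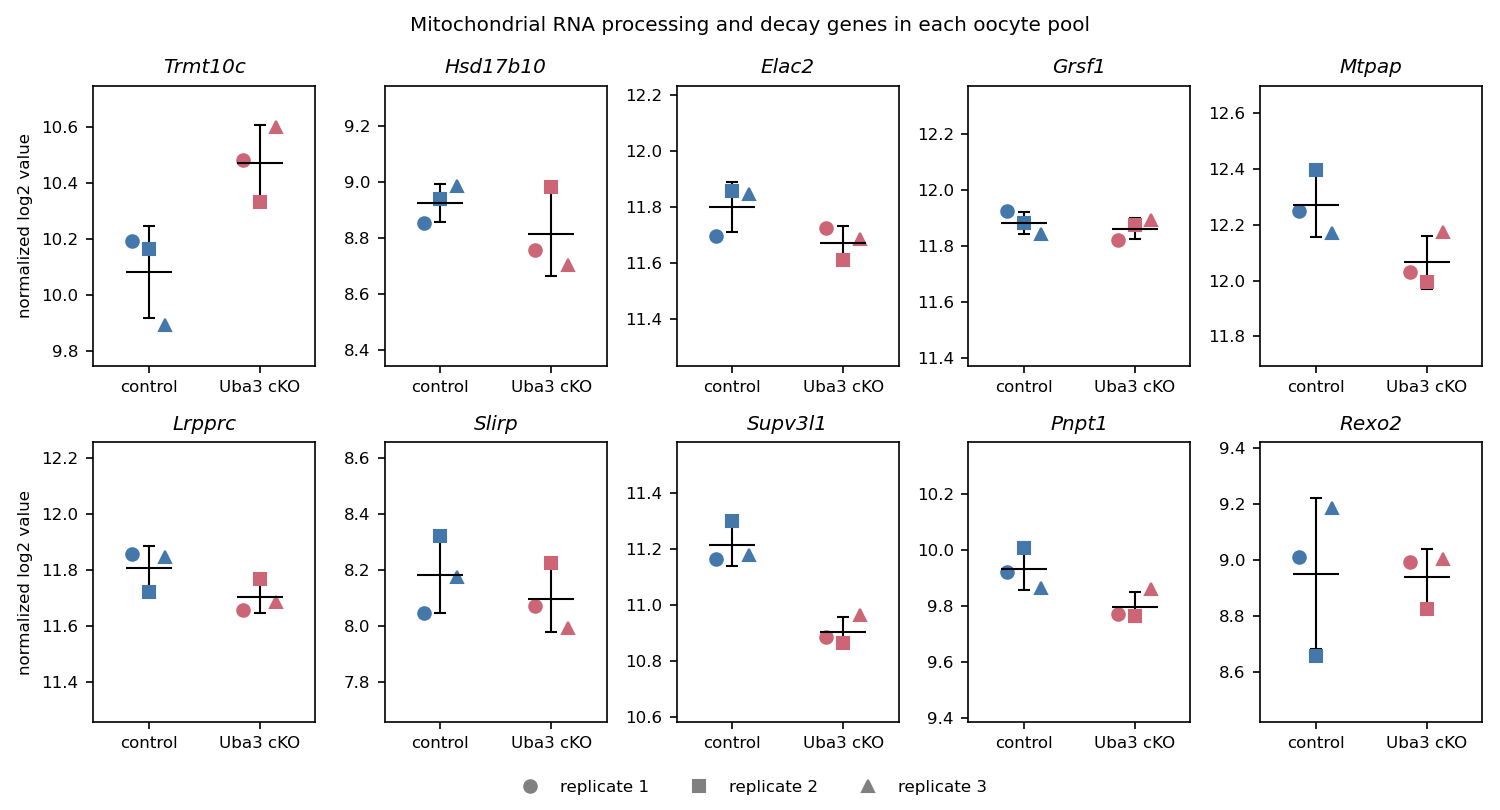
Normalized log2 value (vertical axes, each spanning 1 log2 unit) of the 10 genes in 3 control (blue) and 3 Uba3 cKO (red) pools, with symbols for replicate number and black bars for the mean and SD. The groups are apart for Trmt10c, higher in Uba3 cKO, and for Supv3l1 and Pnpt1, lower in Uba3 cKO.

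The other subunits of RNase P did not pass the test. Hsd17b10 encodes a mitochondrial dehydrogenase that holds the methyltransferase subunit in the complex and also acts in isoleucine and fatty acid breakdown. It stood at 8.85, 8.94 and 8.99 in control and at 8.76, 8.98 and 8.70 in knockout pools 1, 2 and 3. Those groups overlapped, since knockout pool 2 lay within the control range (difference -0.11, 95% interval -0.34 to 0.12, adjusted p = 0.579 in limma). Prorp encodes the nuclease subunit itself and is not among the 10 genes. It stood at 10.08, 10.42 and 10.37 in control and at 10.30, 10.14 and 10.48 in Uba3 cKO pools (difference 0.02, 95% interval -0.24 to 0.27, adjusted p = 0.953 in limma). Its sign turned without control pool 1 or knockout pool 3. Annotated exons of Prorp share 243 bases with Ppp2r3c on the other strand, so its reads are uncertain.

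Elac2 encodes mitochondrial RNase Z, which makes the second cut, at the 3′ end of the transfer RNA. Its values were 11.70, 11.86 and 11.85 in control and 11.73, 11.61 and 11.69 in Uba3 cKO pools. The groups overlapped because control pool 1 was as low as the Uba3 cKO pools. The difference was -0.13 (95% interval -0.32 to 0.06, adjusted p = 0.427 in limma).

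Within a library, the log2 ratio between partner genes does not depend on the scaling between libraries. The ratio of Trmt10c to Hsd17b10 was 1.34, 1.22 and 0.91 in control and 1.73, 1.35 and 1.90 in knockout pools 1, 2 and 3. Those groups were apart by little, with knockout pool 2 just above control pool 1. The ratio of Trmt10c to Prorp was 0.11, -0.26 and -0.47 in control and 0.19, 0.19 and 0.12 in Uba3 cKO pools, again with control pool 1 next to the Uba3 cKO range. The ratio of Trmt10c to Elac2 was -1.51, -1.69 and -1.96 in control and -1.24, -1.28 and -1.08 in Uba3 cKO pools. These 3 ratios share the values of Trmt10c, so they are not separate observations. They were chosen with the values known and are given without a test.

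**Figure D2:**
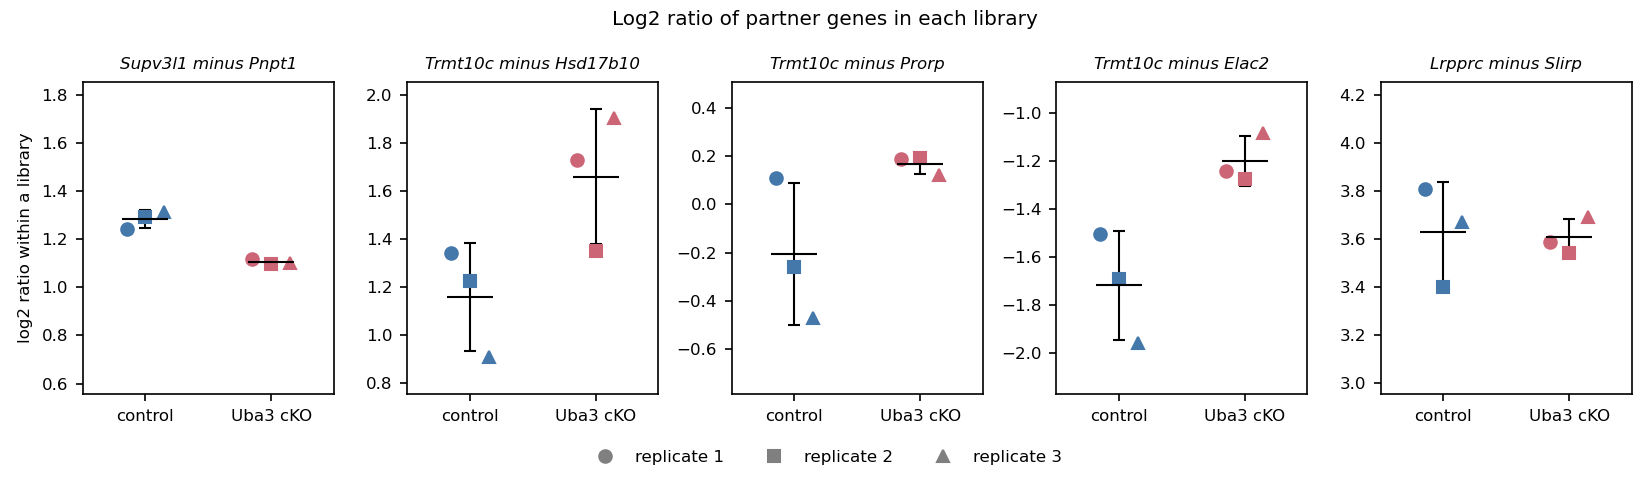
Log2 ratio between partner genes within each library (vertical axes, each spanning the same range), for 3 control (blue) and 3 Uba3 cKO (red) pools, with black bars for the mean and SD. The ratio of Supv3l1 to Pnpt1 was 1.24 to 1.31 in control and 1.10 to 1.12 in Uba3 cKO pools, while the ratio of Lrpprc to Slirp overlapped between the groups.

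Once released, messenger and ribosomal RNAs are handled in mitochondrial RNA granules. Grsf1 encodes an RNA-binding protein of these granules that binds G-rich RNA, including transcripts of the light strand such as that of mt-Nd6. It was the steadiest of the 10 genes, at 11.92, 11.88 and 11.84 in control and 11.82, 11.87 and 11.89 in Uba3 cKO pools. The difference was -0.02 with a 95% interval of -0.20 to 0.16, which is a fold of 0.87 to 1.12 (adjusted p = 0.911 in limma).

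Mtpap encodes the mitochondrial poly(A) polymerase, which adds the tails that complete several stop codons. It stood at 12.25, 12.40 and 12.17 in control and at 12.03, 12.00 and 12.17 in knockout pools 1, 2 and 3. knockout pool 3 was level with control pool 3, so the groups overlapped, and the other Uba3 cKO pools were below every control pool. The difference of -0.21 had a 95% interval of -0.40 to -0.01 and an unadjusted p of 0.0436 in limma, and it was not called (adjusted p = 0.203).

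Lrpprc and Slirp encode partners in a complex that stabilizes mitochondrial messenger RNAs and promotes their polyadenylation. Lrpprc stood at 11.86, 11.72 and 11.85 in control and at 11.66, 11.77 and 11.69 in Uba3 cKO pools. Control pool 2 and knockout pool 2 crossed, and the difference was -0.11 (95% interval -0.29 to 0.08, adjusted p = 0.518 in limma). Slirp was lower in level and more variable, at 8.05, 8.32 and 8.18 in control and 8.07, 8.23 and 7.99 in Uba3 cKO pools. Its difference was -0.08 (95% interval -0.32 to 0.15, adjusted p = 0.699 in limma). Without strand information, reads of Slirp cannot be told apart from those of Snw1, whose annotated exons share 2914 bases with it on the other strand and whose mean value was 12.36, or from those of Alkbh1, which shares 122 bases. The log2 ratio of Lrpprc to Slirp averaged 3.63 ± 0.21 (SD, n = 3) over the control pools and 3.61 ± 0.08 (SD, n = 3) over the knockout pools.

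Decay is carried out by the mitochondrial degradosome, in which the helicase encoded by Supv3l1 unwinds RNA for the polynucleotide phosphorylase encoded by Pnpt1. Together they remove antisense RNA, double-stranded RNA and processing by-products. Supv3l1 stood at 11.16, 11.30 and 11.18 in control and at 10.89, 10.86 and 10.96 in knockout pools 1, 2 and 3. The lowest control pool was above the highest Uba3 cKO pool, as for 12.8% of all tested genes in this direction. The level was 1.24-fold lower, with a log2 difference of -0.31 (SE 0.09, 95% interval -0.51 to -0.12) and an adjusted p of 0.04996 in limma, which is only just under the threshold. The call ended when any library but control pool 1 was left out (differences from -0.34 to -0.27 over the 6 fits, adjusted p up to 0.164), and also with no level filter and with median centring (adjusted p of 0.0936 and 0.0532). Control pool 1 had the lowest Supv3l1 and the lowest sum of theca, stroma and luteal markers among the controls. The marker sums were lower still in the knockout pools. Other pools ran the other way. Control pool 3 had the highest sum (5678) but less Supv3l1 than control pool 2. Knockout pool 3 had the lowest sum (2529) but the highest Supv3l1 of its group. Knockout pool 2 had the highest sum of its group (3253) but the lowest Supv3l1. The part of the markers in this difference was not tested.

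Pnpt1 was also lower in every Uba3 cKO pool, but by little. Its values were 9.92, 10.01 and 9.86 in control and 9.77, 9.76 and 9.86 in Uba3 cKO pools. Control pool 3 and knockout pool 3 were nearly equal, and the difference of -0.13 (95% interval -0.34 to 0.07) was not called (adjusted p = 0.44 in limma). Relative to Pnpt1, Supv3l1 was lower in each Uba3 cKO pool. The log2 ratio of the pair was 1.24, 1.29 and 1.31 in control and 1.12, 1.10 and 1.10 in knockout pools 1, 2 and 3. It averaged 1.28 ± 0.04 (SD, n = 3) over the control pools and 1.11 ± 0.01 (SD, n = 3) over the knockout pools, a difference of -0.18. In either group this ratio varied less than the other 6 ratios computed. It shares the values of Supv3l1, so it is not a separate observation, and it was chosen with the values known. Of the 7 ratios computed, 4 separated the groups, and each of those holds Supv3l1 or Trmt10c, the called genes. Whether the differences of Supv3l1 and Pnpt1 themselves differ was not tested.

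Rexo2 encodes an exonuclease that clears the shortest RNA fragments left by the degradosome. It was the most variable of the 10 genes in control, at 9.01, 8.65 and 9.19, and stood at 8.99, 8.83 and 9.001 in Uba3 cKO pools. The Uba3 cKO pools all lay within the control range. The difference was -0.01 (95% interval -0.29 to 0.27, adjusted p = 0.97 in limma), and its sign turned when control pool 1, control pool 3 or knockout pool 2 was left out.

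**Figure D3:**
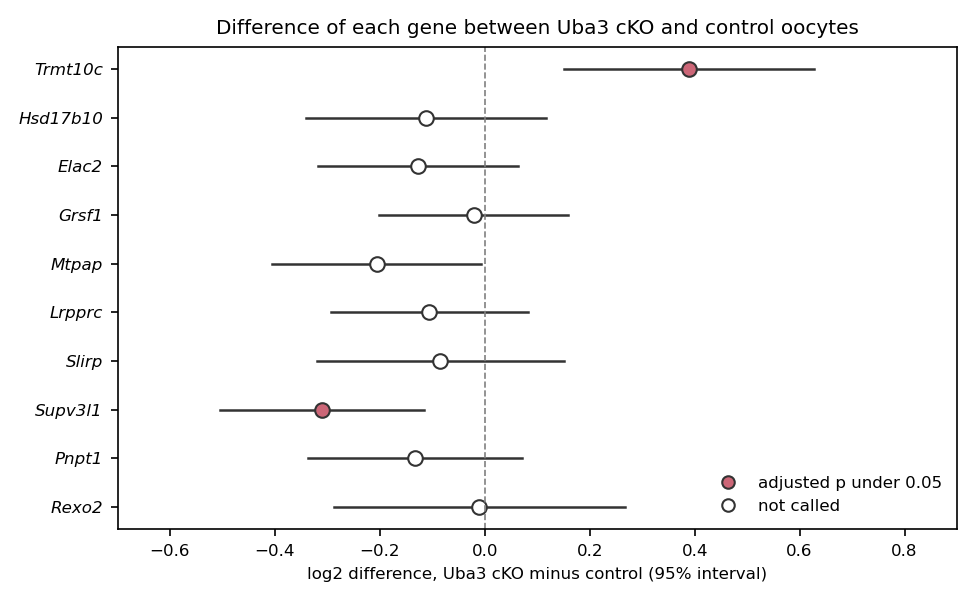
Log2 difference between Uba3 cKO and control oocytes (horizontal axis) for each of the 10 genes, from limma, with 95% intervals as lines. Filled points mark the called genes, Trmt10c at 0.39 and Supv3l1 at -0.31, and the intervals of the others reach or nearly reach 0.

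Set per kilobase of the longest principal transcript in GENCODE M21, the control levels of the genes spanned a wide range. On this log2 scale Mtpap was highest at 10.87 (range over the 3 control pools 10.76 to 10.99), followed by Grsf1 at 10.54 and Elac2 at 10.33. Supv3l1 at 9.83 and Lrpprc at 9.67 came next, and the ranges of these 5 did not overlap with those of their neighbours in the order. Hsd17b10 at 8.98, Rexo2 at 8.84, Trmt10c at 8.50 and Pnpt1 at 8.49 followed, and each of these overlapped with its neighbour. Slirp was lowest at 6.75, with the uncertainty given above. Its place also depends on the annotated length of 2701 bases, and whether oocytes use that transcript was not tested. The helicase transcript was thus above that of its phosphorylase partner in length-scaled level, and Trmt10c and Pnpt1 could not be ordered. The genes lie on 9 chromosomes, and their transcripts run from 962 bases (Hsd17b10) to 4393 bases (Lrpprc), with a GC content of 40.6% (Pnpt1) to 55.1% (Elac2).

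Other genes that act on mitochondrial RNA gave few calls. Of 50 such genes in 5 lists, all kept, 2 rose, none fell and 48 were not called, a share of 4% called against 8.14% of all tested genes, and 14 of the 50 had an unadjusted p under 0.05, against 22.8% of all tested genes. Their median difference was -0.04. Mettl15, a methyltransferase of the mitochondrial small ribosomal RNA, stood at 8.02, 7.81 and 7.85 in control and 8.24, 8.20 and 8.40 in Uba3 cKO pools, all higher (0.39, SE 0.11, adjusted p = 0.0385 in limma). Qtrt2, a subunit of the enzyme that inserts queuine into transfer RNAs, stood at 9.86, 9.30 and 9.47 in control and 10.10, 10.21 and 9.87 in Uba3 cKO pools (0.52, SE 0.14, adjusted p = 0.0352 in limma). Control pool 1 and knockout pool 3 nearly met. The call of Mettl15 ended without control pools 2 or 3 or knockout pools 1 or 3 (adjusted p up to 0.143), and with replicate number as a block (adjusted p = 0.0532). Qtrt2 kept its call only without control pool 1 or without knockout pool 3 among the 6 fits with a library left out, and lost it with quantile normalization and without the trend (adjusted p up to 0.139).

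By list, 1 of 10 genes of ribosomal RNA modification and 1 of 18 of transfer RNA maturation and modification rose. None was called among 5 genes of precursor cleavage (median 0.02, with no unadjusted p under 0.05), among 13 of RNA granules and RNA binding (median -0.04, with 7) or among 4 of end trimming and decay (median -0.09, with 1), all in limma. The granule gene with the highest value, Ddx28, an RNA helicase of ribosome assembly, had a difference of -0.33 (adjusted p = 0.114 in limma). Among the alternative fits it was called only without control pool 1 (adjusted p = 0.0235 in limma). Angel2, a phosphatase of RNA ends with the highest value in its list, had a difference of 0.05 (adjusted p = 0.801 in limma), and its sign turned without control pool 1.

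**Figure D4:**
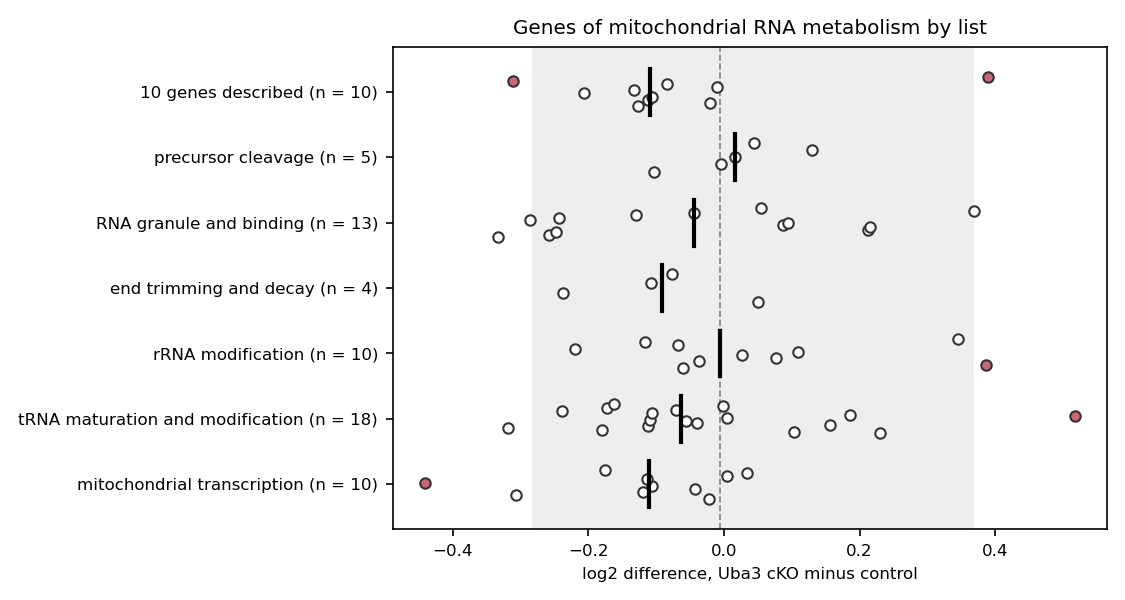
Log2 difference between Uba3 cKO and control (horizontal axis) for the 10 genes and for 6 other lists of mitochondrial RNA metabolism, 1 point a gene, filled where called, with a black bar at each median. The grey band holds the differences from the 5th to the 95th percentile of all 17450 tested genes, -0.28 to 0.37, and the dashed line is their median.

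The machinery that makes the precursors had a similar median. Of 10 genes of mitochondrial transcription, none rose and 1 fell, with a median difference of -0.11. Among all tested genes 2.50% fell. Of these 10 differences, 8 were below 0 and 2 above. The gene that fell was Polrmt, the mitochondrial RNA polymerase, at 9.26, 9.31 and 9.53 in control and 9.17, 8.82 and 8.79 in Uba3 cKO pools. Its difference was -0.44 (SE 0.12, adjusted p = 0.0417 in limma), and the call ended without control pools 2 or 3 or knockout pools 2 or 3 and without the trend (adjusted p up to 0.189). Among 77 mitochondrial ribosomal proteins the median was -0.14, with 1 called higher and 5 lower, a share of 7.79% against 8.14% of all tested genes. Of the 77 differences, 60 were below 0 and 17 above. Whether the 10 genes differ from these lists was not tested.

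Among the RNAs these factors act on, 22 of 32 RNAs of mitochondrial DNA were kept. All 22 had a difference below 0, against 51.8% of all tested genes. Of the 22, 5 were called lower, against 2.50% of all tested genes. Many of these RNAs share precursors, so they are not separate observations. Some stood near the level filter, such as mt-Co2 at a control mean of 3.42 (difference -0.02). The transfer RNA gene mt-Tq, chosen after its value was seen and the only called transfer RNA gene, had a difference of -0.69 (adjusted p = 0.00297 in limma). Whether its reads came from the cut transfer RNA or from uncut precursors cannot be told from these values. The ribosomal RNAs mt-Rnr2 and mt-Rnr1 were lower by 0.71 and 0.49 (differences -0.71 and -0.49, adjusted p = 9.10e-04 and 0.00727 in limma). mt-Nd6, the messenger RNA of the light strand, stood at 9.13, 8.99 and 9.64 in control and 8.03, 8.39 and 8.71 in knockout pools 1, 2 and 3 (difference -0.88, adjusted p = 0.00786 in limma). mt-Cytb fell by 0.38 (difference -0.38, adjusted p = 0.0281 in limma), a call that ended without control pools 1 or 3 or knockout pools 1 or 3 (adjusted p up to 0.143). mt-Co1, with the highest value of these RNAs, had a difference of -0.27 and was not called (adjusted p = 0.0783 in limma). It was called with no level filter, with sample weights and without knockout pool 2 (adjusted p = 0.0347, 0.0197 and 0.00777 in limma). Knockout pool 3 had the highest Trmt10c, the highest Supv3l1 of its group and the highest mt-Nd6 of its group, while control pool 3 had the lowest Trmt10c and the highest mt-Nd6. Among knockout pools, mt-Rnr1 and mt-Tq were also highest in pool 3, but mt-Rnr2, mt-Cytb and mt-Co1 were highest in pool 2. Among control pools, pool 3 was highest for each of these RNAs but mt-Co1. The libraries fall into the study's groups, so no correlation between the 10 genes and their substrates was computed.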

How the data were processed

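Members and gene lists were chosen with earlier results of these data known. Per the submitters' processing notes, the tools named were fastp, STAR, featureCounts and DESeq2 with build GRCm39, without versions, order or settings, and no source used here gives the strand setting of the counting. The deposited values are on a log2 scale, normalized between libraries by the authors. That unit follows from their range (0.0363 to 18.01, no value at exactly 0), since no transform is named in the file. A transform that shrinks low values would understate differences of low genes. Depth is unknown, so no counting interval is given.

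Symbols came from GENCODE M21 (27660 of 28738 IDs, 96.2%), with 1 list gene matched through a RefSeq synonym. Genes with a linear value of 10 or more in at least 3 of 6 libraries were kept (17450). The group difference was fitted to the deposited values by limma 3.58.1 (R 4.3.3) using a mean-variance trend and no pseudocount, although the design had provided for linear values too. On data simulated over 17450 genes, with 50 genes changed at each size, 9 of 161 calls were false. The fit recovered 24% of genes with a log2 change of 0.3, 80% of those with 0.6 and 100% of those with 1. The deposited data gave 1421 calls, so the adjusted threshold was not equally strict and these shares may not carry over. Named genes were Uba3, the 10 genes, 5 mitochondrial RNAs and, from each other list, up to 3 called genes with the smallest adjusted p or else the gene with the highest level. The RNAs mt-Tq and mt-Co2 and single cell type markers were also named, after their values were seen. Snw1, Alkbh1 and Ppp2r3c were named for their overlap. Other exonic overlaps were Supv3l1 with 4930507D05Rik (250 bases) and Mtpap with Gm26865 (1147 bases). Both of those partners lie on the other strand and were below the level filter. Mtpap also shared 224 bases with AC138768.3 on its own strand, which had no value. Elac2 shared 31 bases with Arhgap44 on the other strand (mean value 9.56). Partner ratios and motifs were chosen after values were seen. Alternatives covered the pseudocount, filter, scaling, variance model, sample weights, a replicate block and leaving out each library.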

Additional observations from a re-analysis of the deposited data

How the results depend on the processing

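The direction of Trmt10c and of Supv3l1 was the same in all 17 alternatives, and their calls were kept in 8 and 9 of them. The number of the 10 genes called was 2 in the reported limma fit. It was 0 with no level filter, 0 with median centring and 0 with the replicate block, with 3, 3 and 2 genes at an unadjusted p under 0.05. Over all genes, 4295 of 28738, 3951 of 17450 and 3593 of 17450 had an unadjusted p under 0.05 in those fits. Of all genes, 1278, 1361 and 1258 were called in them. For the 10 genes it was 1 with quantile normalization and 1 without the variance trend, where 1360 and 1254 of all genes were called. It ran from 0 to 2 when 1 library was left out, with 2 to 3 genes at an unadjusted p under 0.05. Over all 17450 genes, 3107 to 4423 had an unadjusted p under 0.05 in those fits. Of the 50 other genes, 2 were called, against 1 with quantile normalization, 6 with sample weights, 1 with the replicate block and 0 to 6 when 1 library was left out. Over all genes 1421 were called, against 2298 with sample weights and 618 to 1637 when 1 library was left out. The replicate numbers are not known to pair pools: same-numbered pools had correlations of their deviations of -0.085, -0.198 and -0.054, and no pool correlated best with its own number. With the block 1258 genes were called, the adjusted p of Supv3l1 was 0.106 and that of Trmt10c 0.057, and Mettl15 lost its call (0.0532). Differences near 0 turned sign: Rexo2 ran from -0.16 to 0.11 when 1 library was left out (0.02 leaving out control pool 1, 0.11 leaving out control pool 3, 0.05 leaving out knockout pool 2), Prorp from -0.09 to 0.10 (-0.089 leaving out control pool 1, -0.073 leaving out knockout pool 3, and -0.024 with sample weights) and Angel2 from -0.025 to 0.14. Leaving out a library leaves fewer samples, and no filter tests more genes; otherwise the cause was not tested. The median difference of the 10 genes stayed between -0.14 and -0.08 in every fit. Depth is unknown, so what it limits cannot be given.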
